A study of Mus musculus with 6 samples.

Results

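Interferon-stimulated genes were followed in 4T1-T cells that had been sorted by how much acetylated low-density lipoprotein (acLDL) they took up. The 43 genes were chosen by name as well-known mouse genes of the interferon response, with earlier results of these data known. All 43 were in the table of 53379 genes with counts, 42 were among the 15973 protein-coding genes of the deposited comparison, and 41 of these had enough counts to be tested, among 12572 genes tested in all. Mx2 is annotated as a polymorphic pseudogene and was outside the protein-coding table, and Iigp1 was below the filter on low counts. 4T1-T is a sub-clone of 4T1, a mammary carcinoma line of the mouse, able to form tumour-cell-lined vessel-like channels (vasculogenic mimicry, VM). The cells were kept overnight in serum-free Opti-Mem with 0.3% bovine serum albumin, given Alexa-488-labelled acLDL at 10 ug/mL for 4 h and returned to complete growth medium for 1 h. The brightest 25% (acLDL-high) and the dimmest 25% (acLDL-low) were then sorted from each culture and sequenced. The sort was made on 3 separate occasions, which gave 3 libraries of each population, so each occasion holds a pair of libraries from a culture of this clone. The labels name no added interferon, knockdown or transgene, and give the sort as the difference between the populations.

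Interferons are secreted proteins that bind receptors on the cell surface and activate JAK kinases and STAT transcription factors. STAT2 and IRF9 act in a complex that binds the interferon-stimulated response element (ISRE) near the start sites of a shared set of genes, and interferon gamma acts through a different element, the gamma-activated site (GAS). The products of these genes sense foreign nucleic acid, block steps of virus replication, destroy pathogen compartments or feed back on the signal, and many of them keep a basal level in cells that have met no interferon. acLDL is taken up by endothelial cells and some macrophages, and the sort was made to compare tumour cells with more and less of this trait.

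Promoter stretches of 150 bases are shown for 4 of the genes that were higher in acLDL-high cells, with the ISRE core marked. They come from RefSeq on GRCm38.p6 (mm10), are printed 5′ to 3′ on the gene's own strand, and carry in capitals every match to the ISRE core GAAANNGAAA on either strand. In these 4 promoters the matches read on the opposite strand, so the capitals show the reverse complement, and in Gbp3 the capitals hold 2 overlapping matches.
Gbp2, chr3:142620513-142620662, plus strand: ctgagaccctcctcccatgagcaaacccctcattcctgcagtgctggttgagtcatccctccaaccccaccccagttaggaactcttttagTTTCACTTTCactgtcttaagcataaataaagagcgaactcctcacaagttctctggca
Gbp3, chr3:142559894-142560043, plus strand: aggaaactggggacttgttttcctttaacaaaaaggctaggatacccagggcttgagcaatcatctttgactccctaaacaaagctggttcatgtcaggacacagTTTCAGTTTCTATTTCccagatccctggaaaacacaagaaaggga
Ifit1, chr19:34640739-34640888, plus strand: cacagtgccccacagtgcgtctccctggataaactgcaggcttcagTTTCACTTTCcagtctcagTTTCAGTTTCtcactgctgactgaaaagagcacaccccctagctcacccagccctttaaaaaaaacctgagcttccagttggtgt
Rsad2, chr12:26456453-26456602, minus strand: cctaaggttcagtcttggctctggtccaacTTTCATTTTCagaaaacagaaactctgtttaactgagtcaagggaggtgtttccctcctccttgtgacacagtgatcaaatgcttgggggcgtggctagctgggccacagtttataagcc
The match of Gbp2 begins 59 bases before the RefSeq start, those of Gbp3 45 and 39 bases before it, and those of Ifit1 104 and 85 bases before it. GENCODE places the starts of Gbp2, Gbp3 and Ifit1 further upstream than RefSeq, so these distances depend on the annotation.

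The ISRE core was common among these promoters, which the choice of known interferon-stimulated genes makes likely beforehand. It is therefore no independent evidence about the sort. Of the 43 genes, 33 had a promoter in the RefSeq table (250 bases before to 50 bases after the start), and 19 of the 33 (57.6%) held at least 1 match, against 1079 of all 27025 genes (3.99%). Among the genes with an adjusted p under 0.05, 7 of 9 (77.8%) held a match, namely Ddx58, Gbp2, Gbp3, Ifih1, Ifit1, Ifitm3 and Rsad2, and Oasl1 and Oasl2 did not. Among the tested genes that did not pass, 12 of 24 (50.0%) held a match. A GAS match (TTCNNNGAA, which is the same on both strands) was in 10 of the 33 promoters (30.3%), against 9.55% of all genes, and in 1 of the 9 and 9 of the 24. Matches of the 2 motifs were counted separately, whether or not they overlapped. A match is a run of letters and not a bound site, and the absence of these letters from a window of 300 bases says nothing about the factor.

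The 6 libraries held between 70263372 and 94216786 counts. Levels are given as CPM, the counts scaled to library size after TMM normalization, and 3 counts correspond to between 0.0323 and 0.0429 CPM, a floor set by counting error alone. Most small counts were even in every library, as if each mate of a read pair had been counted. The sources do not state this, and if it holds, 2 counts stand for 1 read pair, and the floor and the small counts given for single genes stand for correspondingly fewer pairs. The 7 genes listed as mammary carcinoma markers (Epcam, Krt8, Krt18, Krt19, Krt7, Cdh1 and Cldn4) are epithelial genes. Their sum was between 3703 and 5875 CPM in acLDL-high and between 3284 and 5523 CPM in acLDL-low cells. This shows epithelial expression and cannot tell this line from other epithelial cells. Libraries of the same occasion resembled each other more than libraries of the same population did, so the populations were compared within occasions. Each log2 fold change of acLDL-high over acLDL-low cells, with its standard error (SE), comes from edgeR's quasi-likelihood test with the occasion as a block, and each adjusted p from a Benjamini-Hochberg adjustment across the 12572 genes.

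Of the 41 interferon-stimulated genes tested, 10 were higher in acLDL-high cells at an adjusted p under 0.05. These were Ddx58 and Ifih1 (RNA sensors), Oasl1 and Oasl2 (OAS-like proteins), Gbp2 and Gbp3 (guanylate-binding GTPases), Ifit1, Rsad2 and Ifitm3 (antiviral effectors) and Zbp1 (a Z-nucleic acid sensor). At that threshold 0 of the 41 were lower, in edgeR and in DESeq2. Among all genes tested, 3.43% were higher and 1.32% lower. The differences were small, from 0.28 for Ddx58 to 0.72 for Zbp1 on the log2 scale among the 10. The median over the 41 was 0.21, a fold of 1.16, beside a median of 0.0017 over all genes tested, and single values ran from -0.16 for Irf9 to 1.03 for Ifit3b. In 35 of the 41 the estimate was above 0, as it was in 6356 of all 12572. At an unadjusted p under 0.05, 21 were higher and 2, Irf9 and Isg20, were lower, beside 10.6% and 8.73% of all genes. In bulk RNA, more cells that express a gene and more RNA per cell cannot be told apart.

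The result rests on comparing the populations within an occasion. Without the block, 0 of 40 interferon-stimulated genes tested and 0 of 12329 genes in all passed in edgeR's test, and 1 and 45 had an unadjusted p under 0.05. With DESeq2 and the block, 7 of the 10 passed, the exceptions being Ifit1, Rsad2 and Zbp1, while 2.3% of all genes were higher. Without occasion 3, 5 of the 10 passed, namely Gbp2, Gbp3, Ddx58, Oasl1 and Ifih1. Calls fell over all genes too in that fit, to 126, with 0.902% of all genes higher. Only Ddx58 and Zbp1 among the 41 had every acLDL-high library above every acLDL-low library, and 2.86% of all genes had populations that did not overlap in either direction. Within occasions, 25 of the 41 had the higher value in acLDL-high cells in all 3 pairs and 3 (Irf9, Isg20 and Dtx3l) were lower in all 3, where the shares over all genes were 20.9% and 19.4%.

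**Figure D1:**
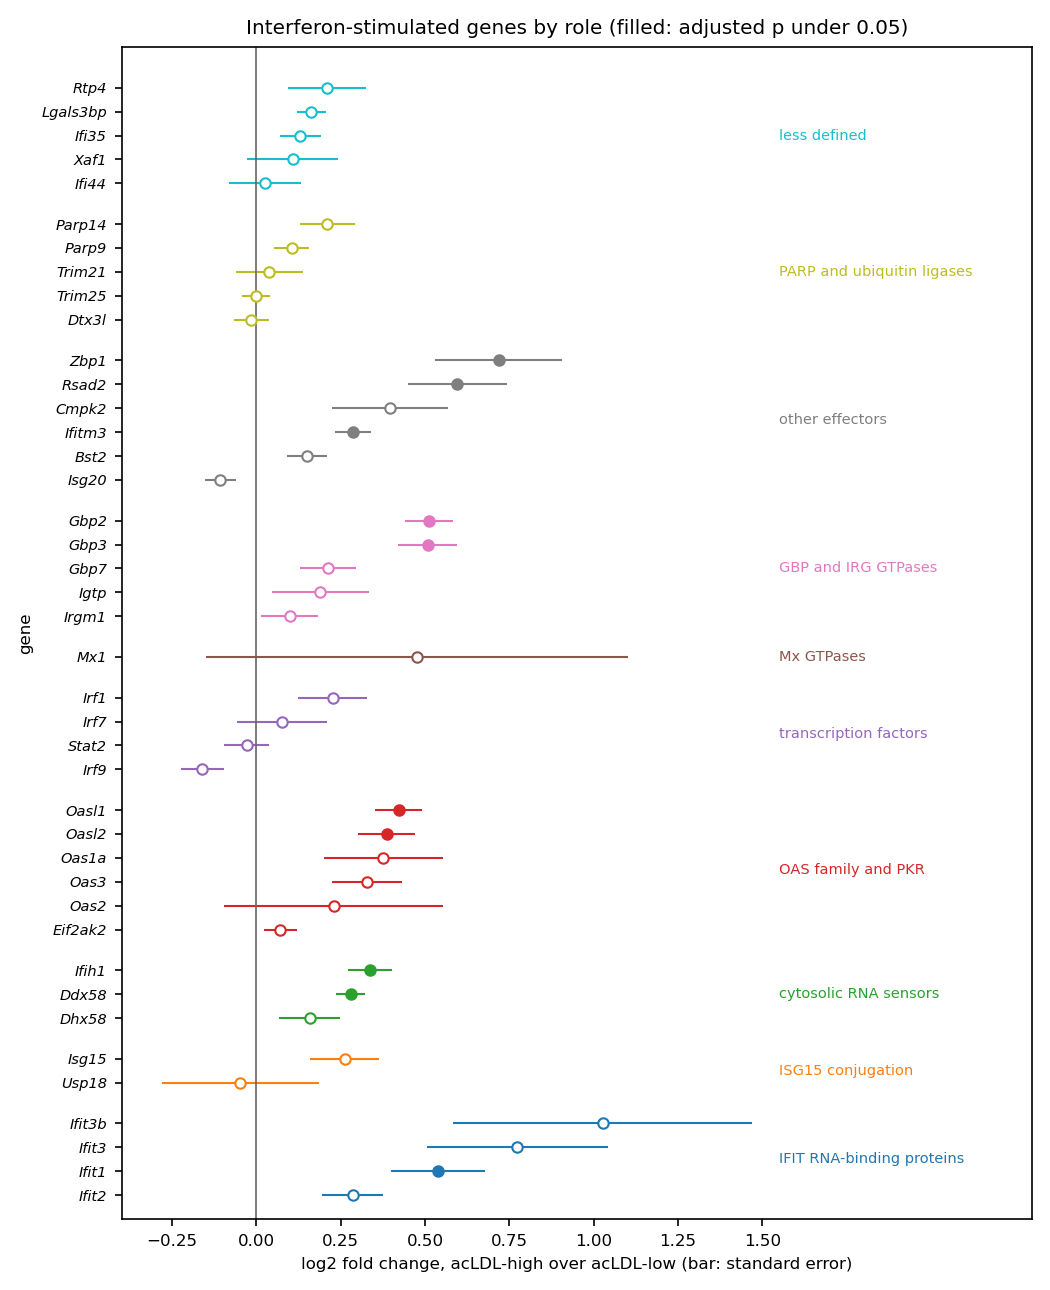
Log2 fold change of acLDL-high over acLDL-low cells for the 41 interferon-stimulated genes tested, grouped by role (points), with the standard error (bars). Filled points are the 10 genes with an adjusted p under 0.05, which all lie to the right of 0, between 0.28 and 0.72. The 3 widest bars belong to Mx1, Ifit3b and Oas2, which were among the lowest in level.

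The cytosolic RNA sensors recognise viral RNA by its ends or its double strand and signal to interferon genes. Ddx58 (RIG-I, which reads short and 5′-triphosphate RNA) stood in occasions 1, 2 and 3 at 88.8, 79.5 and 80.1 CPM in acLDL-high and at 74.8, 62.3 and 68.0 CPM in acLDL-low cells, the order used for all values that follow. All 3 acLDL-high libraries lay above all 3 acLDL-low libraries, although the difference was small. Its log2 fold change was 0.28 (SE 0.04, edgeR adjusted p = 0.00339). Ddx58 (ENSMUSG00000040296) lies on chromosome 4 at 40203773 to 40239828, and this and all other positions are on GRCm38.

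Ifih1 (MDA5, which reads long double-stranded RNA) was at 22.8, 22.8 and 26.0 CPM in acLDL-high and at 17.5, 16.5 and 23.0 CPM in acLDL-low cells. The acLDL-low library of occasion 3 reached the level of the acLDL-high libraries of occasions 1 and 2, so the populations overlapped between occasions and not within them. Its log2 fold change was 0.34 (SE 0.06, edgeR adjusted p = 0.0107), and the gene spans 62595798 to 62646255 on chromosome 2. The third member, Dhx58 (LGP2, which lacks the signalling domains of the other two), was higher in all 3 pairs by 0.17, 0.24 and 0.09 on the log2 scale but did not pass (0.16, SE 0.09, adjusted p = 0.377).

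Among the IFIT proteins, IFIT1 binds viral RNA that lacks the host's cap methylation and holds it back from translation. All 4 IFIT genes had estimates above 0 and each pair had the higher value in acLDL-high cells, but Ifit1 alone passed. Ifit1, on chromosome 19 at 34640871 to 34650009, was at 3.42, 2.35 and 8.57 CPM in acLDL-high and at 2.14, 1.19 and 7.40 CPM in acLDL-low cells. Occasion 3 was far above the other two in both populations, and within each occasion acLDL-high cells were higher. The log2 fold change of Ifit1 was 0.54 (SE 0.14, edgeR adjusted p = 0.0453), and the adjusted p was 0.0686 without occasion 1 and 0.0960 without occasion 3. Ifit2 stood at 10.8, 11.8 and 9.05 CPM against 10.5, 9.26 and 6.43 CPM in acLDL-low cells, a log2 fold change of 0.29 (SE 0.09) with an adjusted p of 0.105. The difference of Ifit2 was near 0 in occasion 1, at 0.03, and without that occasion its log2 fold change was 0.42 with an edgeR adjusted p of 0.0113. Ifit2 did not pass without occasion 2 or without occasion 3.

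Ifit3 and Ifit3b are neighbouring copies whose reads can be shared. Of the 50-base windows of their transcripts, 51.2% of Ifit3 and 45.0% of Ifit3b occur in another gene, mainly in each other, so their separate values are uncertain. Their promoters are shown because the copies are alike there too, with capitals as above.
Ifit3, chr19:34583329-34583528, plus strand: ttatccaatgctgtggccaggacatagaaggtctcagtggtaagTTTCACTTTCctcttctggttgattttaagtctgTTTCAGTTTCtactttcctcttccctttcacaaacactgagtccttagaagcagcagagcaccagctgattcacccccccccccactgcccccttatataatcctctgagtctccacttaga
Ifit3b, chr19:34607717-34607956, plus strand: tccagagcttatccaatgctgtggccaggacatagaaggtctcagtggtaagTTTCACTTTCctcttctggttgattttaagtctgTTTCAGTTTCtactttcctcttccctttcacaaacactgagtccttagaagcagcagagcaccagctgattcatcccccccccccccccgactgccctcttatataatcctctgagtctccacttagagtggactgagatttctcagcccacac
Over 218 bases compared without gaps, 188 (86.2%) were identical, and in both the 2 matches begin 34 bases apart. The run of C downstream of the matches differs in length between the copies. Bases beyond it were therefore compared out of register, which lowers this share. Ifit3 was at 0.578, 0.375 and 1.65 CPM in acLDL-high and at 0.198, 0.285 and 1.09 CPM in acLDL-low cells. Ifit3b was at 0.176, 0.139 and 0.721 CPM against 0.0529, 0.0248 and 0.486 CPM, where the acLDL-low values of occasions 1 and 2 are close to the floor. Occasion 3 was the highest for both genes, and its acLDL-low library lay above the acLDL-high libraries of the other occasions. The log2 fold changes were the largest among the 41, 0.77 (SE 0.27) for Ifit3 and 1.03 (SE 0.44) for Ifit3b, and neither passed, with adjusted p of 0.134 and 0.224. Ifit3 passed without occasion 2, which held its smallest pair difference (0.37), with a log2 fold change of 0.87 and an edgeR adjusted p of 0.0421. It did not pass without occasion 1 or without occasion 3.

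The OAS enzymes make 2′-5′-linked oligoadenylates that switch on RNase L, and the OAS-like proteins share their fold. All 6 genes of this group, Eif2ak2 included, had estimates above 0, and the OAS-like pair passed. Oasl1, which in mouse restrains translation of Irf7, was at 22.3, 46.8 and 24.3 CPM in acLDL-high and at 15.9, 31.3 and 21.4 CPM in acLDL-low cells. It was the only one of the 41 whose level was highest in occasion 2. Oasl1 had a fitted log2 fold change of 0.42 (SE 0.07, edgeR adjusted p = 0.00479) and lies on chromosome 5 at 114923240 to 114937915. Its neighbour Oasl2, at 114896936 to 114912234, was at 15.3, 14.4 and 31.6 CPM against 12.7, 8.78 and 27.0 CPM, with occasion 3 highest. Its log2 fold change was 0.39 (SE 0.08, edgeR adjusted p = 0.0218), and the adjusted p was 0.104 without occasion 3.

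The other 4 of this group did not pass. Oas3 was at 10.7, 4.83 and 10.4 CPM in acLDL-high and at 9.49, 2.93 and 9.00 CPM in acLDL-low cells, so it was low in both populations of occasion 2, where its difference was largest. The fit gave Oas3 a log2 fold change of 0.33 (SE 0.10) with an adjusted p of 0.0988. Without occasion 1, which held its smallest pair difference (0.17), it was 0.43 with an edgeR adjusted p of 0.0394. Oas3 did not pass without occasion 2 or without occasion 3. Oas1a, of which 57.6% of the 50-base windows occur in other genes such as Oas1g and Oas1b, had a log2 fold change of 0.38 (adjusted p = 0.266). Oas2 had 0.23 (adjusted p = 0.761), from levels of at most 0.743 CPM in any library. Eif2ak2 (PKR, a kinase that halts translation on double-stranded RNA) had 0.07 (adjusted p = 0.468).

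Guanylate-binding proteins (GBP) and immunity-related GTPases (IRG) coat and break the vacuoles of intracellular pathogens and respond strongly to interferon gamma. Gbp2 had the smallest p of all 41 genes. It was at 46.5, 25.2 and 20.2 CPM in acLDL-high and at 33.2, 15.1 and 16.3 CPM in acLDL-low cells. Occasion 1 was the highest in both populations and the acLDL-high library was above its partner in each occasion, although the populations overlapped across occasions. The log2 fold change was 0.51 (SE 0.07, edgeR adjusted p = 0.00138). Gbp3 was also highest in occasion 1, at 13.7, 7.93 and 7.03 CPM against 9.28, 5.09 and 5.64 CPM, and its log2 fold change was also 0.51 (SE 0.09, edgeR adjusted p = 0.00616). Both lie in the GBP cluster of chromosome 3, Gbp2 at 142620602 to 142638008 and Gbp3 at 142560026 to 142573209.

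The remaining members of this group did not pass. Gbp7, from the same cluster, was at 14.7, 4.81 and 12.0 CPM in acLDL-high and at 13.3, 3.54 and 11.0 CPM in acLDL-low cells, with a log2 fold change of 0.21 (SE 0.08, adjusted p = 0.183), and 12.8% of its 50-base windows occur in other genes. It was at its lowest in occasion 2 in both populations, whereas Gbp2 and Gbp3 were lowest there in acLDL-low cells only. Igtp (Irgm3), whose exons overlap those of Irgm2 on the same strand over 162 bases, had 0.19 (adjusted p = 0.512), and Irgm1, a regulator of the other IRG proteins, had 0.10 (adjusted p = 0.579). Iigp1, an IRG protein that attacks parasite vacuoles, was almost silent, with counts of 6, 4 and 10 in acLDL-high and 4, 0 and 4 in acLDL-low cells, and was not tested.

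The group of other antiviral effectors held 3 of the 10 genes. Ifitm3, a membrane protein that stops viruses from fusing in endosomes, had the highest level per kilobase of exon of the 43, with a mean of 142 CPM per kilobase. It was at 79.1, 113 and 126 CPM in acLDL-high and at 62.8, 104 and 94.8 CPM in acLDL-low cells. Occasion 1 was the lowest in both populations, which overlapped. The log2 fold change was 0.29 (SE 0.05, edgeR adjusted p = 0.00899), 10.0% of its 50-base windows occur in other genes, and without occasion 3 the adjusted p was 0.143. Ifitm3 lies on chromosome 7 at 141009586 to 141010770.

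Rsad2 (viperin, which makes a chain-terminating nucleotide) and its neighbour Cmpk2 (a mitochondrial nucleotide kinase) are coexpressed in many interferon responses. Rsad2, on chromosome 12 at 26442746 to 26456452, was at 1.23, 2.31 and 4.24 CPM in acLDL-high and at 0.687, 1.56 and 3.01 CPM in acLDL-low cells. It was lowest in occasion 1 and highest in occasion 3, with a difference of the same direction in each. The log2 fold change was 0.60 (SE 0.15, edgeR adjusted p = 0.0375), and the adjusted p was 0.0726 without occasion 1 and 0.235 without occasion 3. Cmpk2 stood at 1.87, 1.65 and 2.37 CPM against 1.30, 1.03 and 2.27 CPM, which gave 0.40 (SE 0.17) and an adjusted p of 0.228.

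Zbp1, which binds Z-form nucleic acid and can start necroptosis, had the largest change of the genes that passed. It was at 2.51, 2.24 and 2.16 CPM in acLDL-high and at 1.20, 1.14 and 1.91 CPM in acLDL-low cells. The populations did not overlap, and the acLDL-low library of occasion 3 stood closest to the acLDL-high libraries. The differences in log2 CPM were 1.05, 0.96 and 0.17 in pairs 1, 2 and 3. The fitted log2 fold change was 0.72 (SE 0.19, edgeR adjusted p = 0.0481), and it was 0.55 with an adjusted p of 0.167 without occasion 1 and 1.02 with an adjusted p of 0.0602 without occasion 3. Zbp1 lies on chromosome 2 at 173206612 to 173218923.

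Bst2 and Isg20 did not pass and their estimates had opposite signs. Bst2 (tetherin, which ties budding virus to the membrane) was at 22.7, 20.8 and 22.5 CPM in acLDL-high and at 21.1, 17.4 and 21.1 CPM in acLDL-low cells, a log2 fold change of 0.15 (SE 0.06, adjusted p = 0.182). Isg20, an exonuclease for single-stranded RNA, was at 40.8, 48.0 and 59.7 CPM against 42.7, 50.1 and 68.1 CPM, and each acLDL-high library was below its partner. The log2 fold change of Isg20 was -0.11 (SE 0.05) with an adjusted p of 0.229.

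**Figure D2:**
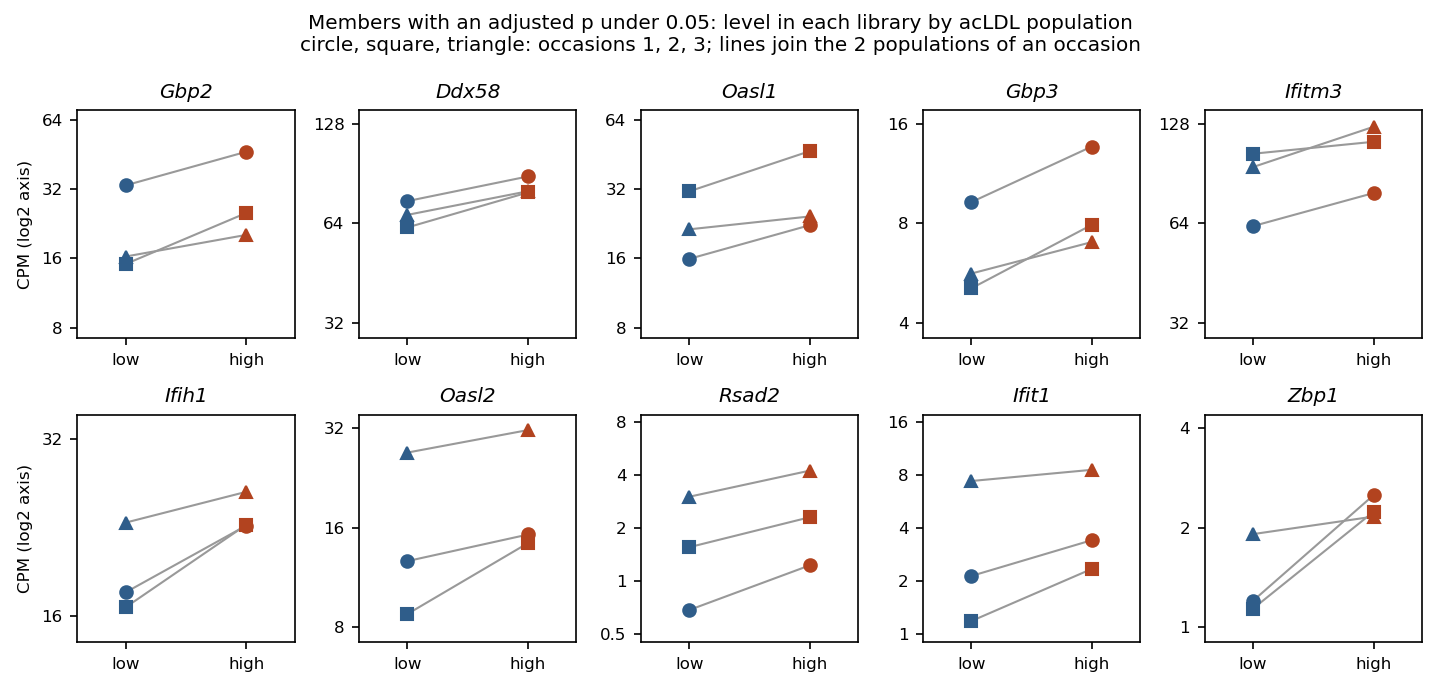
Level in CPM (log2 axis) of the 10 interferon-stimulated genes with an adjusted p under 0.05, in acLDL-low and acLDL-high libraries, with lines joining the populations of an occasion. Every line goes up from low to high, while the height of the lines differs between occasions, as for Ifit1 at 3.42, 2.35 and 8.57 CPM in acLDL-high cells. The 10 genes were picked by the test on these same pairs, so the shared direction is no separate evidence. Of the 31 tested genes that did not pass, 15 were higher in all 3 pairs.

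The other roles held no gene that passed. Isg15, a ubiquitin-like protein that is joined to new proteins during infection, is a standard readout of interferon, and its promoter is shown because the capitals hold 3 overlapping ISRE core matches.
Isg15, chr4:156200819-156200968, minus strand: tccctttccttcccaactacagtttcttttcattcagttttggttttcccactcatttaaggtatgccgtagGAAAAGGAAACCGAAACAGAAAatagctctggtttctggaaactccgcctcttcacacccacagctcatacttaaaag
Isg15 was at 9.50, 11.1 and 9.61 CPM in acLDL-high and at 8.09, 7.41 and 9.77 CPM in acLDL-low cells. The acLDL-high library was above its partner in occasions 1 and 2 and level with it in occasion 3. The estimate was 0.26 on the log2 scale (SE 0.10, adjusted p = 0.180). Its level differed less between occasions than that of any other of the 41. Usp18, the protease that removes ISG15 and damps the type I receptor, was at 0.729, 0.167 and 1.63 CPM in acLDL-high and at 0.806, 0.0990 and 1.77 CPM in acLDL-low cells. Its levels were far apart between occasions, and its log2 fold change was -0.05 (SE 0.23, adjusted p = 0.940).

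Among the transcription factors of the response, 0 of 4 passed. Irf1, which interferon gamma induces, was at 59.3, 76.6 and 60.1 CPM in acLDL-high and at 66.1, 48.8 and 52.9 CPM in acLDL-low cells. Its pair differences in log2 CPM were -0.15, 0.65 and 0.19 in occasions 1, 2 and 3. The log2 fold change was 0.23 (SE 0.10) with an adjusted p of 0.247. Without occasion 1, which held its only difference below 0, it was 0.42 with an edgeR adjusted p of 0.000149. Irf1 did not pass without occasion 2 or without occasion 3. Irf9, the DNA-binding part of the complex it forms with STAT2, was at 19.2, 9.69 and 23.3 CPM against 20.4, 12.0 and 25.2 CPM. It was below its partner in each pair, and its log2 fold change was -0.16 (SE 0.06) with an adjusted p of 0.192, its exons overlapping those of Rnf31 over 123 bases. Irf7, the factor that amplifies interferon alpha genes, had 0.08 (adjusted p = 0.817), and Stat2 had -0.03 (adjusted p = 0.866).

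The Mx GTPases trap viral nucleocapsids and in most inbred mice are defective. Mx1 had counts of 4, 0 and 31 in acLDL-high and of 4, 0 and 15 in acLDL-low cells, so it was at 0 in both libraries of occasion 2, and its log2 fold change of 0.48 had an SE of 0.63 (adjusted p = 0.739). Mx2 had 11, 15 and 87 counts against 27, 18 and 48, highest in occasion 3 in both populations, and was not tested.

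The ADP-ribosylating and ubiquitin ligase group had 0 of 5 past the threshold. Parp14 was at 28.0, 15.6 and 25.3 CPM in acLDL-high and at 26.1, 10.7 and 24.7 CPM in acLDL-low cells, with a log2 fold change of 0.21 (SE 0.08, adjusted p = 0.181). Its difference was mostly that of occasion 2. Parp9 and Dtx3l encode partners in a histone-modifying complex and start head to head on opposite strands, where their exons overlap over 458 bases. Their log2 fold changes were 0.10 and -0.01, with adjusted p of 0.290 and 0.916. Trim21, an antibody receptor of the cytosol, had 0.04 (adjusted p = 0.884), and Trim25, which attaches ubiquitin in RIG-I signalling, had -0.0018 with an adjusted p of 0.986.

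The 5 genes with less defined roles all had estimates above 0, and 0 of 5 passed. Lgals3bp, a secreted galectin-binding glycoprotein, came closest, at 79.6, 47.4 and 111 CPM in acLDL-high and at 69.5, 41.7 and 103 CPM in acLDL-low cells. It was higher in each pair by a small step, and its log2 fold change was 0.16 (SE 0.04) with an adjusted p of 0.0505. That value is so close to the threshold that it passed under other settings, such as DESeq2's size factors with an edgeR adjusted p of 0.0400. Rtp4 had 0.21 (adjusted p = 0.347), Ifi35 had 0.13 (adjusted p = 0.271), Xaf1 had 0.11 (adjusted p = 0.724) and Ifi44 had 0.03 (adjusted p = 0.927). Of the 50-base windows of Rtp4, 13.6% occur in other genes, and the exons of Ifi35 overlap an opposite-strand gene over 290 bases.

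The size of the difference was not even across occasions. The median difference in log2 CPM over the 41 was 0.12 in pair 1, 0.38 in pair 2 and 0.12 in pair 3, while the medians over all genes tested were 0.015, -0.0075 and -0.00022. In pairs 1, 2 and 3, 31, 35 and 31 of the 41 were higher in acLDL-high cells, beside 6886, 5954 and 6263 of all 12572 genes. The greatest signed difference fell in pair 2 for 29 of the 41, where 30.9% of all genes had theirs, and in pairs 1 and 3 for 7 and 5. Oas3, Oasl2, Igtp, Parp14 and Irf1 were among those with their greatest difference in pair 2, and Ifitm3 and Ifit2 had theirs in pair 3. Without occasion 2 the median log2 fold change was 0.13.

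**Figure D3:**
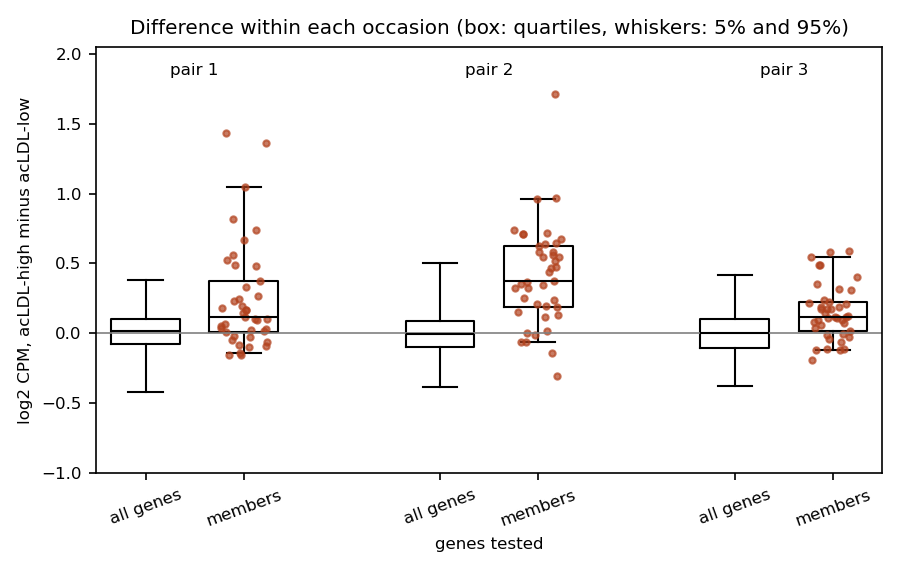
Difference in log2 CPM between acLDL-high and acLDL-low cells within each occasion, for all 12572 genes tested and for the 41 interferon-stimulated genes (points, boxes at the quartiles, whiskers at 5% and 95%). The median of the 41 is at 0.12, 0.38 and 0.12 in pairs 1, 2 and 3, and the boxes of all genes are centred near 0.

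Occasion 2 was also where most of these genes were lowest. The mean of the 2 libraries on the log2 scale was lowest in occasion 2 for 32 of the 41, beside 39.9% of all genes tested, and lowest in occasions 1 and 3 for 5 and 4. It was highest in occasion 3 for 26, in occasion 1 for 14 and in occasion 2 for 1, beside 3845, 3721 and 5006 of all 12572 genes. The range of these means over occasions had a median of 1.11 on the log2 scale over the 41, beside 0.45 over all genes, and ran from 0.14 for Isg15 to 3.53 for Mx1, 3.48 for Usp18 and 2.76 for Ifit3b. It exceeded the size of the difference between the populations in 36 of the 41, and in 11988 of all 12572 genes. An occasion has only its own pair of libraries, so occasions were described and not tested against each other. The labels name no difference between them.

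**Figure D4:**
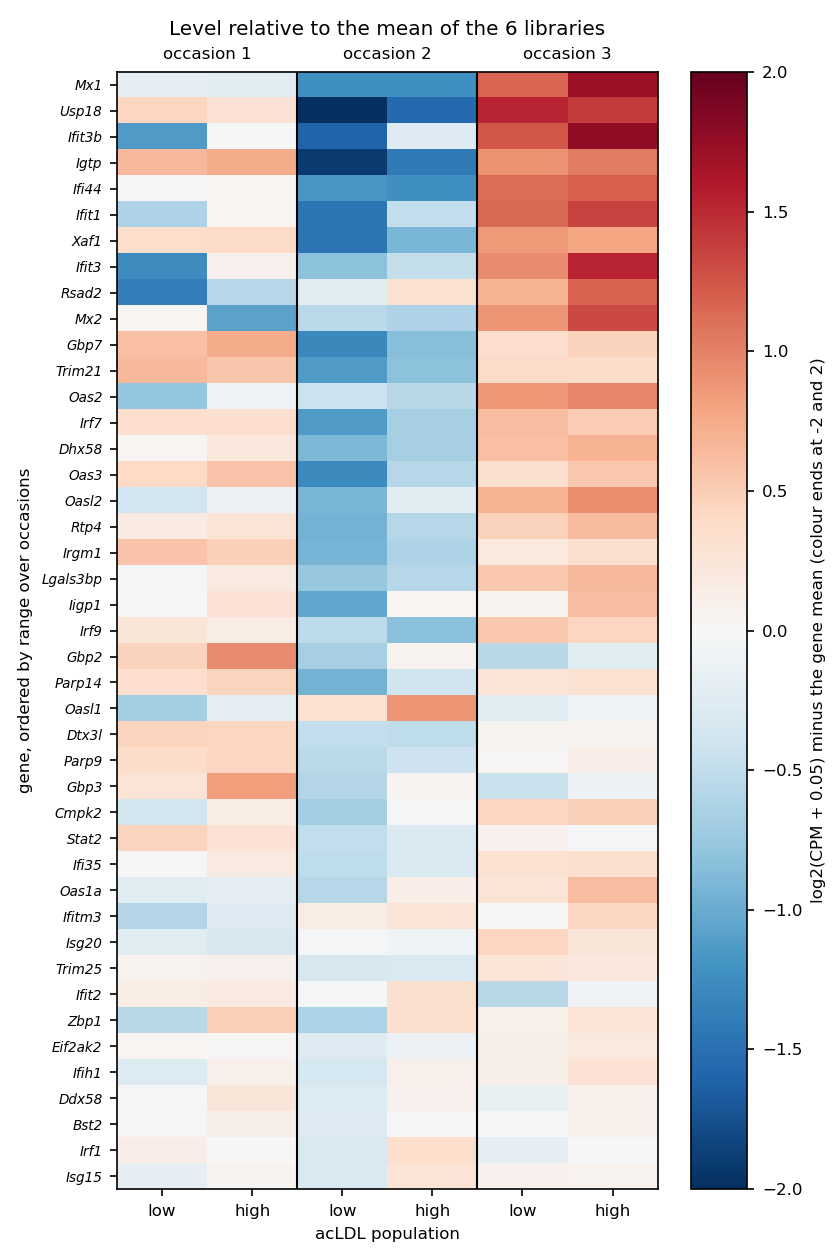
Level of each of the 43 interferon-stimulated genes in the 6 libraries, as log2(CPM + 0.05) minus the mean of the gene, ordered by the range over occasions. The columns of occasion 2 are blue for most genes, 32 of the 41 tested being lowest there, and within an occasion the acLDL-low and acLDL-high columns look alike. Oasl1, Gbp2, Gbp3 and Ifit2 are among the rows that depart from this order.

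Levels were compared between genes per kilobase of exon. After Ifitm3, the highest were Isg20, with a mean of 27.7 CPM per kilobase, and Lgals3bp with 26.4, and the lowest were Mx1 with 0.029 and Iigp1 with 0.010. The 10 genes that passed were spread over this order, from Ifitm3 at the top through Ddx58 (10.7), Gbp2 and Oasl1 (10.4 each), Oasl2 (2.87), Ifih1 (2.63), Gbp3 (2.48) and Ifit1 (1.57) to Zbp1 (0.528) and Rsad2 (0.501).

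Upstream of these genes, the interferons themselves were at or near 0. Of 21 ligand genes, 16 had 0 counts in all 6 libraries and none was tested. The highest count was 13, for Ifne, an epithelial type I interferon, in an acLDL-high library, and without it the highest was 7, for Ifnab in an acLDL-low library. Ifnb1 had 2 counts, in the acLDL-low library of occasion 1, and Ifng had 0 throughout. If each count is a separate event, this allows Ifng up to 0.0323 to 0.0429 CPM per library. If both mates of a pair were counted, the level allowed is higher.

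Receptors, JAK and STAT proteins and their inhibitors were read at ordinary levels and differed little. In acLDL-high cells 2 of 17 genes were higher and 0 lower, beside 3.43% and 1.32% of all genes, with a median log2 fold change of 0.07. Ifngr2, a chain of the interferon gamma receptor, was at 53.1, 30.0 and 44.4 CPM against 46.4, 25.7 and 39.9 CPM (log2 fold change 0.19, edgeR adjusted p = 0.0368), and it did not pass when any of the 3 occasions was left out, with adjusted p of 0.0800, 0.0775 and 0.160. Il10rb, a chain that the receptor of interferon lambda shares with that of IL-10, had 0.29 (edgeR adjusted p = 0.0418), and 0.0886 without occasion 1 and 0.291 without occasion 3. The other gamma receptor chain, Ifngr1, had 0.21 with an edgeR adjusted p of 0.0744, which was 0.0474 without occasion 1 and 0.000243 without occasion 2. Its pair differences in log2 CPM were 0.18, 0.04 and 0.41, so the fit without occasion 2 left out the smallest. The type I receptor chains Ifnar1 and Ifnar2 had log2 fold changes of 0.07 and 0.09 (adjusted p = 0.460 and 0.497).

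A list for nucleic acid sensing, its signalling and related factors had 17 genes tested. Of these, 3 were higher and 0 lower, beside 3.43% and 1.32% of all genes, with a median of 0.08. Tlr3, the endosomal receptor for double-stranded RNA, was at 45.1, 30.0 and 43.1 CPM against 41.1, 23.7 and 36.8 CPM (log2 fold change 0.23, edgeR adjusted p = 0.0260, and 0.0728 and 0.185 without occasions 2 and 3). Ikbke, a kinase that phosphorylates IRF3 and IRF7, had 0.23 (edgeR adjusted p = 0.0301, and 0.148 and 0.0718 without occasions 1 and 3). Aim2, a sensor of cytosolic DNA, had 0.85 from levels of 0.867, 0.222 and 2.54 CPM against 0.449, 0.0990 and 1.51 CPM (edgeR adjusted p = 0.0458, and 0.110 and 0.337 without occasions 1 and 3). Irf3, the factor these pathways activate without new synthesis, had -0.01 with an adjusted p of 0.934.

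A further list of 66 interferon-stimulated genes was, like the 43, written with earlier results of these data known and is no independent check on them. It had 54 members tested, of which 6 were higher and 0 lower, beside 3.43% and 1.32% of all genes. Its median log2 fold change was 0.14, and 43 of 54 estimates were above 0, beside 6356 of all 12572. Cxcl10, a chemokine for T cells, was at 5.30, 17.0 and 6.05 CPM in acLDL-high and at 3.17, 10.9 and 3.46 CPM in acLDL-low cells, higher in each pair (log2 fold change 0.72, edgeR adjusted p = 0.000499). Ly6e, a membrane protein that hinders coronavirus entry, was at 8.46, 8.01 and 9.73 CPM against 6.52, 4.08 and 5.41 CPM, with populations that did not overlap (0.72, edgeR adjusted p = 0.00268, and 0.0946 without occasion 3). Lgals9, a galectin, had 0.41 and Ccl5, a chemokine, had 0.52, with edgeR adjusted p of 0.00242 and 0.0161. Plscr1, a phospholipid scramblase, had 0.21 (edgeR adjusted p = 0.0212, and 0.0686 and 0.145 without occasions 1 and 3), and Ifi204, of the IFI200 family of DNA sensors, had 0.19 (edgeR adjusted p = 0.0357, and 0.111 and 0.244 without occasions 1 and 3). Without the replicate block none of the 11 genes of these lists passed.

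**Figure D5:**
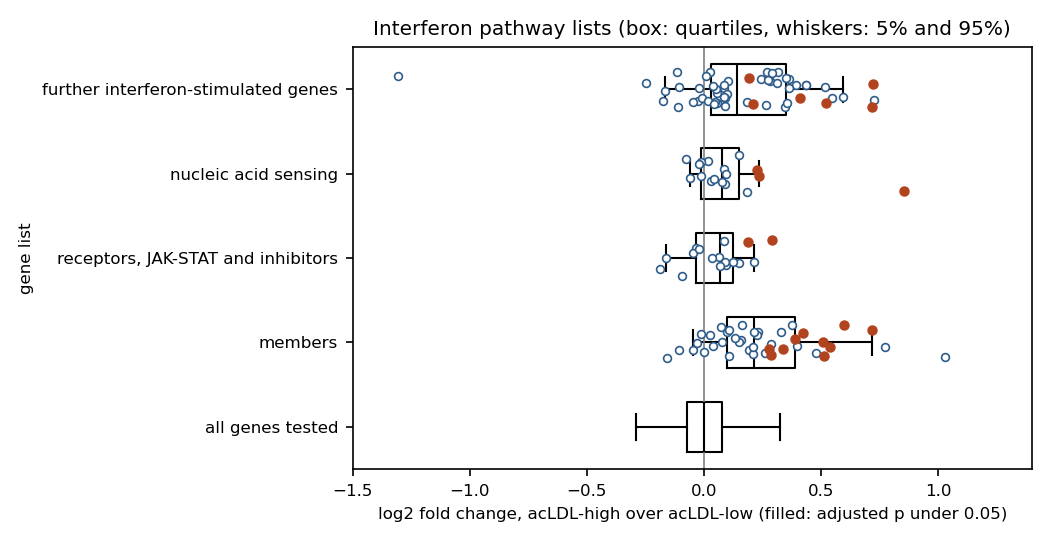
Log2 fold change of acLDL-high over acLDL-low cells for the genes tested in each list, beside all genes tested (boxes at the quartiles, whiskers at 5% and 95%, filled points with an adjusted p under 0.05). The medians are 0.21 for the 41 interferon-stimulated genes, 0.14 for the further list, 0.08 for nucleic acid sensing and 0.07 for receptors and JAK-STAT, and 0.0017 for all genes.

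Markers of other cell types were also read, and their levels differed between lists. Of 12 macrophage and myeloid markers, Adgre1, C1qa and C1qb were at 0 in all libraries and 8 of the 12 had at most 10 counts in every library. Their sum was between 20.1 and 24.4 CPM in acLDL-high and between 19.3 and 21.6 CPM in acLDL-low cells, and 1 of the 4 tested, Cd14, a lipopolysaccharide co-receptor, was higher (log2 fold change 0.32, edgeR adjusted p = 0.0246). The part of these markers in the values of the interferon-stimulated genes was not tested. Cd14 was at 12.0, 9.65 and 14.01 CPM in acLDL-high and at 9.25, 7.89 and 11.4 CPM in acLDL-low cells. Cd68, a lysosomal protein of macrophages and other cells, went the other way and did not pass (-0.28, SE 0.11, edgeR adjusted p = 0.201). It stood at 6.75, 7.19 and 8.16 CPM with high uptake, against 10.7, 8.31 and 7.90 CPM with low uptake. Cd68 was therefore lower in pairs 1 and 2 and slightly higher in pair 3. Of the 4 myeloid markers tested, 3 had estimates above 0 and 1, Cd68, below. Siglech, of plasmacytoid dendritic cells, and Ncr1, of natural killer cells, were at 0. Flt3, listed with Siglech, had 4 counts in the acLDL-low library of occasion 1 and 0 elsewhere. Cd3e, listed with Ncr1, had at most 2 counts in any library. The 5 endothelial markers summed to between 0.289 and 0.542 CPM in acLDL-high and between 0.508 and 0.571 CPM in acLDL-low cells, and the 4 fibroblast markers to between 28.8 and 42.9 and between 28.2 and 40.6 CPM, nearly all of it Pdgfra, which was between 28.1 and 42.8 CPM. Of the 7 carcinoma markers, 1, the tight junction gene Cldn4, was higher, with a log2 fold change of 0.53 (edgeR adjusted p = 0.000832).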

How the data were processed

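RNA-Seq was made of 3 acLDL-low and 3 acLDL-high libraries of 4T1-T cells. Libraries were prepared from mRNA with a stranded kit. The authors aligned the reads to mm10 with STAR (2.5.2a), counted them per gene with featureCounts (1.4.3-p1) and deposited the raw counts, which are not normalized. The tool versions come from the submitters' processing notes, and the annotation release and strand setting are not given in the sources used here. A second deposited table holds the authors' own comparison made with DESeq2 (1.20.0), with mean normalized signal (counts divided by size factors), log2 fold change and its error, a Wald statistic (a score), p-value and adjusted p-value. From it only gene IDs, symbols and the list of 15973 protein-coding genes were used.

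The counts were analysed with edgeR 4.0.16 in R 4.3.3. Of the protein-coding genes, 12572 passed filterByExpr. Libraries were scaled by TMM, and glmQLFTest compared the populations with the replicate number, which marks the occasion of the sort, as a block. Benjamini-Hochberg adjustment ran over every gene that passed, and genes under 0.05 were called. Pair differences use log2 CPM, to which a prior count of 2 was added. Standard errors (SE) were taken as the fold change on the log2 scale over the root of the F statistic. The pairing comes from the design text, which speaks of separate occasions, and was checked: same-numbered libraries deviated from their population means together (correlation over genes 0.795 to 0.846, against -0.557 to -0.0882 for different numbers, where genes are not independent). The deviations of a gene sum to 0 over the 3 libraries of a population. The correlations for different numbers are therefore in part fixed by those for same numbers. Chi-square per degree of freedom was 21.3 to 27.4 within occasions and 126 to 360 within populations, so no library repeated another.

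The 43 genes, their roles, the pathway lists and the alternatives were chosen with earlier results of these data known. Named genes are the members, a set of pathway genes (Ifnar1, Ifnar2, Ifngr1, Ifngr2, Irf3, Ifnb1 and Ifng) and the pathway genes with an adjusted p under 0.05. Values in every library are given for members with an unadjusted p under 0.05 and for the 3 of highest level per kilobase. Gene positions, exon lengths and shared windows come from GENCODE M21 and promoters from RefSeq, both on GRCm38. Of the counts between 1 and 20, 70.9% to 72.3% were even in each library, as if both mates of a pair had been counted, which the sources do not state. A setting with halved counts was therefore added after seeing the data. Depth was 70263372 to 94216786 counts per library. The alternatives were no block, DESeq2 size factors, DESeq2 1.42.0 with betaPrior, no low-count filter, a minimum of 10 counts per library, all genes of the count table, each occasion left out and an adjusted p under 0.01. Results for some listed genes are not reported here. The test was tested on simulated counts.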

Additional observations from a re-analysis of the deposited data

How the results depend on the processing

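The block decided the calls. With no replicate block, 0 genes in all, 0 interferon-stimulated genes and 0 genes of the pathway lists passed, against 597, 10 and 11 with it. Over the fits that leave out an occasion, the numbers ran from 126 to 869 for all genes (112 to 602 higher, 14 to 267 lower), from 5 to 11 for the interferon-stimulated genes and from 3 to 16 for the pathway lists (3 to 16 higher, 0 to 2 lower). Without occasion 3, Ifit1, Ifitm3, Oasl2, Rsad2 and Zbp1 did not pass, and without occasion 1, Ifit1, Rsad2 and Zbp1 did not. With no filter on low counts, 932 genes passed (669 higher, 263 lower), 13 interferon-stimulated and 19 pathway genes among them. At an adjusted p under 0.01 the numbers were 199 (171 higher, 28 lower), 5 and 3. DESeq2 called 101 genes lower. Halving the counts ended the call of Ifit1 (adjusted p = 0.0758). Over all settings the median of the interferon-stimulated genes was 0.10 to 0.26, the lowest with the shrunken fold changes of DESeq2.

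Estimates near 0 changed sign. Trim25 was 0.0012 with DESeq2 size factors, 0.0016 with DESeq2, 0.0050 with no filter and 0.0083 with all genes of the table. Over the fits that leave out an occasion, log2 fold changes ran from -0.011 to 0.018 for Trim25, -0.13 to 0.069 for Usp18, -0.14 to 0.039 for Stat2, -0.056 to 0.20 for Irf7, -0.060 to 0.13 for Trim21, -0.018 to 0.24 for Xaf1, -0.012 to 0.052 for Ifi44 and -0.050 to 0.027 for Irf3.

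Counts limit Iigp1, Mx1, Mx2 and the ligands, where 3 counts are 0.0323 to 0.0429 CPM. They were also small for Ifit3b, at 4 and 2 in the acLDL-low libraries of occasions 1 and 2. Usp18 had 12 counts in acLDL-high and 8 in acLDL-low cells in occasion 2. Every comparison rests on 3 occasions, and what limits the precision of each gene was not tested. The cause of the changes between settings was not tested.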
